A study of Arabidopsis thaliana with 12 samples.

Results

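The genes described here are 4 SABATH methyltransferases of Arabidopsis thaliana known as targets of the microRNA miR163. They are FAMT (AT3G44860), PXMT1 (AT1G66700) and PXMT1's neighbouring paralogs AT1G66690 and AT1G66720. They were taken by gene identifier from an expression table of 24730 genes. Of the 4 members, 3 had a row in that table and 2, FAMT and PXMT1, averaged at least 1 FPKM (fragment counts relative to gene length and to the mapped total) over the input libraries. AT1G66720 had no row and was not analysed here.

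SABATH enzymes transfer a methyl group from S-adenosylmethionine to small molecules, mostly to carboxyl groups of plant hormones and volatiles and in some members to a ring nitrogen. FAMT methylates farnesoic acid, PXMT1 was named for a paraxanthine methyltransferase activity, and the substrates of AT1G66690 and AT1G66720 are not known with certainty. miR163 is an evolutionarily young microRNA whose precursor gene, MIR163 (AT1G66725), is held to have arisen by inverted duplication of a gene of this family. DCL1, the Dicer-like enzyme of the microRNA pathway, cuts it out of its primary transcript, and the mature microRNA guides cleavage of its target messenger RNAs.

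The groups were a dcl1 mutant and Col-0 wild type (WT), both of the Col-0 ecotype, 20 days old, grown in soil without special treatment. The labels call the tissue leaf whereas the protocol speaks of seedlings, and they do not name the dcl1 allele. Poly(A) RNA was sequenced as input (RNA-seq) and after immunoprecipitation of N6-methyladenosine (m6A), with 3 replicates of each genotype and assay, 12 libraries in all. The expression values are those of the 6 input libraries. FPKM do not give sequencing depth, so the depth behind each value is unknown.

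The summed FPKM of all genes lay between 616106 and 621297 in dcl1 libraries and between 620172 and 622995 in WT libraries. DCL1 (AT1G01040) itself was at 0.604, 0.406 and 0.632 FPKM in dcl1 replicates 1, 2 and 3, against 5.08, 4.53 and 5.996 FPKM in WT replicates 1, 2 and 3. The leaf markers CAB1, RBCS1A and RCA summed to between 32334 and 34886 FPKM in dcl1 and between 31401 and 35847 FPKM in WT. The 5 root markers listed summed to between 14.4 and 18.3 FPKM in dcl1 and between 16.4 and 19.5 FPKM in WT. Nearly all of that sum was SHR and PHO1, and IRT1, CASP1 and PLT2 stayed at or under 0.422 FPKM in every library. WT replicate 3 was the WT library nearest to dcl1, with a mean r of 0.951 with the dcl1 libraries over all tested genes, against 0.936 for WT replicates 1 and 2. Among the dcl1 libraries, replicate 1 was nearest to WT (0.951, against 0.941 and 0.931 for dcl1 replicates 2 and 3). In bulk tissue, fewer cells that express a gene and less RNA per cell cannot be told apart.

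PXMT1 was the member that rose in dcl1, FAMT did not pass the test and its libraries overlapped between the genotypes, and AT1G66690 was close to 0 throughout. PXMT1 had 6.13, 5.33 and 7.84 FPKM in dcl1 replicates 1, 2 and 3, against 1.70, 1.07 and 2.52 FPKM in WT replicates 1, 2 and 3. Every dcl1 library lay above every WT library, as held for 26.6% of the 17925 genes tested, with 21.8% the other way round. The means were 6.43 ± 1.28 FPKM in dcl1 and 1.76 ± 0.728 FPKM in WT (SD, n = 3 each), a ratio of 3.65. On the log2(FPKM + 1) scale PXMT1 rose by 1.45 (SE 0.21, 95% interval 0.96 to 1.93, limma adjusted p = 0.0027). A rise at least this large was found for 415 tested genes, 2.32% of them.

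Of the 2 members tested, 1 rose and 0 fell, where 17.8% of all tested genes rose and 12.8% fell, 30.6% together. The all-gene balance depended on scaling, with 3189 higher and 2291 lower calls on FPKM as deposited and 2481 higher and 3716 lower calls after quantile normalization. PXMT1 rose under both, by 1.35 after quantile normalization. Its call held with any 1 library left out, with changes from 1.25 (without WT replicate 2) to 1.64 (without WT replicate 3). A smaller pseudocount of 0.1 FPKM gave a log2 change of 1.87, and a larger one of 5 FPKM gave 0.76. In the authors' deposited table the PXMT1 ratio of dcl1 over WT was 3.65, with a q-value of 2.5e-10.

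FAMT, whose product is the methyl ester of farnesoic acid, was the member with the highest FPKM. It had 9.20, 13.1 and 13.7 FPKM in dcl1 replicates 1, 2 and 3, against 11.8, 10.3 and 14.4 FPKM in WT replicates 1, 2 and 3. The genotypes overlapped, with dcl1 replicate 1 below every WT library and WT replicate 3 above every dcl1 library. FAMT averaged 12.01 ± 2.46 FPKM in dcl1 and 12.2 ± 2.06 FPKM in WT (SD, n = 3 each). Its log2 change of -0.03 (SE 0.17) did not pass the test (limma adjusted p = 0.92). The 95% interval of -0.42 to 0.36 leaves room for moderate changes in either direction and does not reach the interval of PXMT1. In the authors' deposited table the FAMT ratio was 0.986, with a q-value of 0.879.

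**Figure D1:**
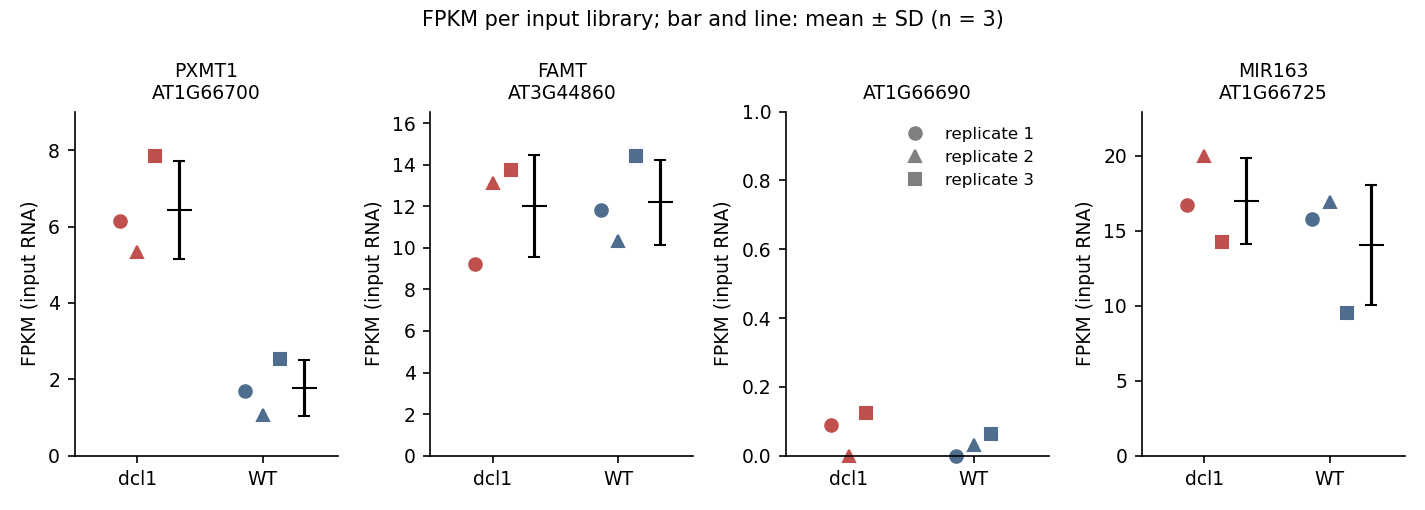
FPKM of PXMT1, FAMT, AT1G66690 and the MIR163 primary transcript in each of the 6 input libraries, dcl1 left and WT right, with replicates as symbols and mean ± SD (n = 3) where all values are above 0. The 3 dcl1 libraries lie above the 3 WT libraries for PXMT1 and overlap them for FAMT, AT1G66690 and MIR163.

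AT1G66690 was listed at 0.0905, 0 and 0.125 FPKM in dcl1 replicates 1, 2 and 3, and at 0, 0.0297 and 0.0634 FPKM in WT replicates 1, 2 and 3. All 6 values were under the minimum of 1 FPKM, so the gene was not tested. At these levels a change of this paralog in either direction was not detectable.

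The levels of PXMT1 and FAMT were also compared within each library. The FPKM of FAMT was 1.499, 2.46 and 1.75 times that of PXMT1 in dcl1 replicates 1, 2 and 3, against 6.95, 9.65 and 5.71 times in WT replicates 1, 2 and 3. The log2 ratio of PXMT1 to FAMT averaged -0.80 ± 0.33 in dcl1 and -2.28 ± 0.16 in WT (SD, n = 3 each), a difference of 1.47. The groups did not overlap, and the exact two-sided permutation test gave p = 0.1, which is the smallest p that 3 against 3 libraries allow. This was the 1 pair of members that could be compared.

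The table places AT1G66690, PXMT1 and MIR163 in 1 cluster on chromosome 1 of TAIR10. AT1G66690 lies on the minus strand at 24869554 to 24870850 and PXMT1 on the minus strand at 24873291 to 24874758. MIR163 lies on the plus strand at 24883931 to 24884559, 9172 bases beyond PXMT1. In the RefSeq gene order AT1G66720 stands between the pseudogene AT1G66710 and MIR163. FAMT is on the plus strand of chromosome 3 at 16379633 to 16381070. None of these rows overlapped another gene of the table. How reads shared between such close paralogs were counted is not stated, so the split of reads among them is uncertain.

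The MIR163 primary transcript, from which DCL1 cuts the microRNA, was well above the expression minimum in both genotypes. It had 16.7, 20.0 and 14.3 FPKM in dcl1 replicates 1, 2 and 3, against 15.8, 16.9 and 9.49 FPKM in WT replicates 1, 2 and 3. The genotypes overlapped, and WT replicate 3 was the low library. The log2 change of 0.28 (SE 0.21) did not pass (limma adjusted p = 0.34), and it was 0.04 without WT replicate 3. Of 52 tested MIR genes, 45 rose, 2 fell (MIR414 and MIR775) and 5 were not called (MIR163, MIR413, MIR825, MIR167b and MIR834). MIR163 ranked 4 by WT level among those 52 genes. Many MIR genes near 0 in WT were tested only because they were high in dcl1. The count of 45 and any rank by rise among the 52 are therefore partly set by the expression minimum. Among the 18 with a WT mean of at least 1 FPKM, 11 rose and 2 fell, with a median log2 change of 0.85. For comparison, 17.8% of all tested genes were called higher in dcl1 and 12.8% lower, and the all-gene median change was 0.03 on the log2 scale. The mature microRNA was not measured in these libraries.

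Within each genotype the order of the libraries for PXMT1 was the reverse of that for MIR163. Replicate 3 had the highest PXMT1 and the lowest MIR163, and replicate 2 the lowest PXMT1 and the highest MIR163, in dcl1 and in WT. The PXMT1 order was shared by 7.20% of all tested genes and the MIR163 order by 2.39%. The FPKM of PXMT1 as a fraction of that of MIR163 was 0.367, 0.267 and 0.549 in dcl1 replicates 1, 2 and 3, and 0.108, 0.0631 and 0.266 in WT replicates 1, 2 and 3. The value of WT replicate 3 nearly reached that of dcl1 replicate 2. With 3 libraries in each genotype no correlation was computed.

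**Figure D2:**
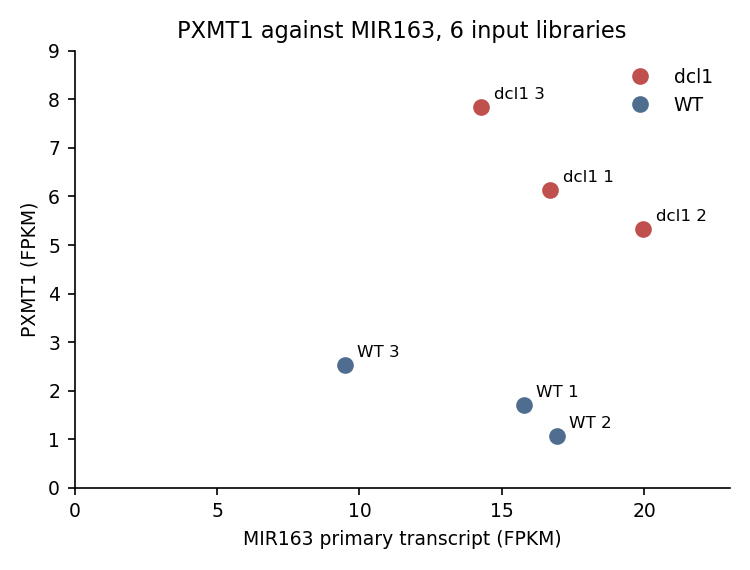
PXMT1 FPKM (vertical axis) against MIR163 primary transcript FPKM (horizontal axis), 1 point per input library, with the replicate number beside it. The dcl1 points lie between 5.33 and 7.84 FPKM of PXMT1, above all WT points, at MIR163 levels that overlap, and in each genotype replicate 3 is at the upper left.

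Of 8 listed genes of the miR163 route, MIR163 included, 1 rose, 2 fell and 5 were not called, where 30.6% of all tested genes were called in either direction. The gene that rose was HYL1 (AT1G09700), whose double-stranded RNA-binding protein is the partner of DCL1, with 11.1 ± 0.823 FPKM in dcl1 and 7.68 ± 0.343 FPKM in WT (SD, n = 3 each; log2 0.48, limma adjusted p = 0.0052). DCL1, the mutated gene itself, fell by 2.00 on the log2 scale (SE 0.12, limma adjusted p = 1.1e-04). Its call says nothing about the rest of the route. HY5 (AT5G11260), a transcription factor of light signalling, fell by 0.64 (SE 0.20, adjusted p = 0.04996, just under the threshold). HY5 averaged 7.56 ± 1.25 FPKM in dcl1 and 12.6 ± 3.49 FPKM in WT (SD, n = 3 each), with WT replicate 3 at 8.57 FPKM, inside the dcl1 range. The HY5 call was lost under several alternatives, among them median-ratio scaling (adjusted p = 0.0559) and leaving out WT replicate 1 (0.152), WT replicate 2 (0.156) or any dcl1 replicate (0.0590 to 0.141). It held without WT replicate 3, where HY5 fell by 0.88 (adjusted p = 0.0040), and after quantile normalization (0.0420).

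The rest of the SABATH family was mixed, and its most abundant gene in dcl1 was AT1G15125, which is not among the 4 members. Of 20 other SABATH genes listed, 18 were in the table and 8 were tested, of which 3 rose, 1 fell and 4 were not called. Thus 37.5% rose and 12.5% fell, against 17.8% and 12.8% of all tested genes. The median log2 change of the 8 was 0.23, against 0.03 over all tested genes. The count of 4 called genes fell to 2 without WT replicate 1 or 2 or dcl1 replicate 2 or 3. The other 10 in the table averaged under 1 FPKM, and the highest single value among them was 1.06 FPKM for the salicylate and benzoate methyltransferase BSMT1 in dcl1 replicate 2.

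AT1G15125, a family member without a symbol in RefSeq, changed most. It had 39.0, 28.1 and 69.6 FPKM in dcl1 replicates 1, 2 and 3, against 7.03, 4.58 and 13.5 FPKM in WT replicates 1, 2 and 3. All dcl1 libraries lay above all WT libraries, and in both genotypes the order of libraries was that of PXMT1. Its log2 change was 2.33 (SE 0.41, limma adjusted p = 0.0060), the largest among the 10 tested SABATH genes. Over the 6 libraries its log2(FPKM + 1) correlated with that of PXMT1 at r = 0.992, a value that largely carries the step between the genotypes.

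AT3G21950 rose, with 7.65 ± 0.173 FPKM in dcl1 and 4.49 ± 0.515 FPKM in WT (SD, n = 3 each; log2 0.66, SE 0.09, limma adjusted p = 0.0023). IAMT1 (AT5G55250), which methylates the auxin indole-3-acetic acid, rose by 0.39 (SE 0.11, adjusted p = 0.036), a call lost after quantile normalization (0.0701) and when any of the 5 libraries other than dcl1 replicate 1 was dropped (0.0501 to 0.104). AT4G36470 fell by 0.48 (SE 0.13, adjusted p = 0.030), a call lost without WT replicate 1 or 2 or dcl1 replicate 2 or 3 (0.0704 to 0.0989). In the authors' deposited table AT3G21950, IAMT1 and AT4G36470 had q-values of 9.6e-05, 0.034 and 0.011 but were not marked significant. PXMT1 and AT1G15125 were marked significant there. JMT (AT1G19640), which methylates jasmonic acid, had a log2 change of -0.06 and did not pass (adjusted p = 0.72).

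**Figure D3:**
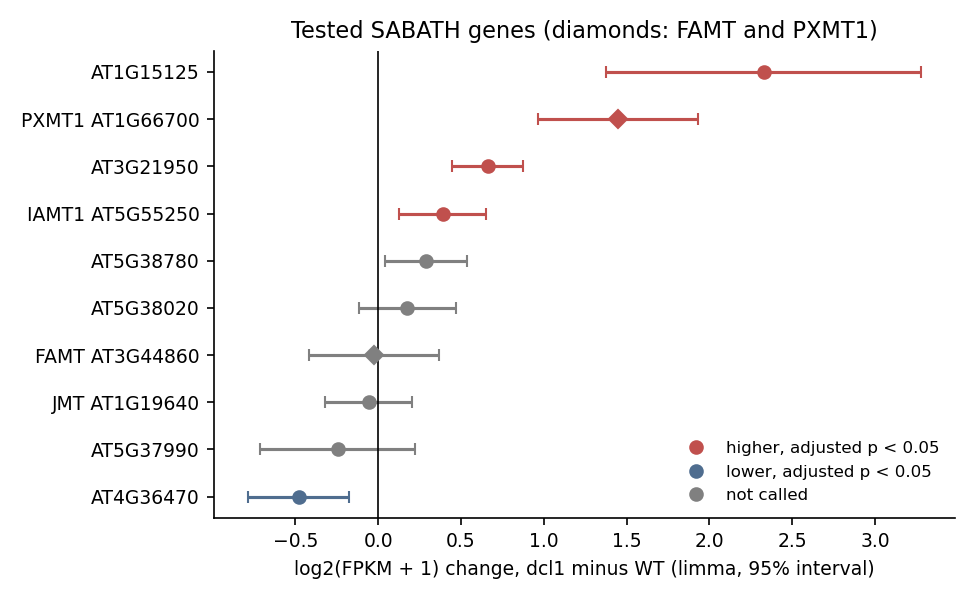
Change in log2(FPKM + 1), dcl1 minus WT, with limma 95% intervals, for the 10 tested SABATH genes (diamonds mark FAMT and PXMT1, colours the call). PXMT1 (1.45) stands second to AT1G15125 (2.33), and the FAMT interval spans 0.

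By level, FAMT led the family in WT, followed by AT1G15125 (8.36 ± 4.59 FPKM) and AT4G36470 (7.13 ± 0.697 FPKM), neighbours whose libraries overlapped (SD, n = 3 each). PXMT1 ranked 5 in WT by its mean, but 8, 9 and 5 within WT replicates 1, 2 and 3. Its WT libraries overlapped those of JMT (1.75 ± 0.272 FPKM), the next gene, and of genes ranked below JMT. In dcl1, AT1G15125 (45.6 ± 21.6 FPKM) led, FAMT came next and did not overlap it. PXMT1 ranked 4 there and overlapped both AT3G21950 above it and AT4G36470 (4.86 ± 0.929 FPKM) below it.

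The FPKM of the 21 SABATH genes in the table summed to 77.3, 71.1 and 112 in dcl1 replicates 1, 2 and 3, against 41.3, 36.5 and 50.4 in WT replicates 1, 2 and 3. AT1G15125 contributed 39.5% to 62.2% of the dcl1 sums and 12.6% to 26.7% of the WT sums. The FAMT portion was 11.9% to 18.5% of the dcl1 sums and 28.3% to 28.6% of the WT sums. That of PXMT1 was 7.003% to 7.93% of the dcl1 sums and 2.93% to 5.01% of the WT sums. Without AT1G15125 and PXMT1 the sums were 32.2, 37.7 and 34.4 in dcl1 and 32.6, 30.8 and 34.4 in WT, which overlap. AT1G15125 and PXMT1 had the largest rises among the tested SABATH genes in these same libraries, so leaving them out favours overlap.

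**Figure D4:**
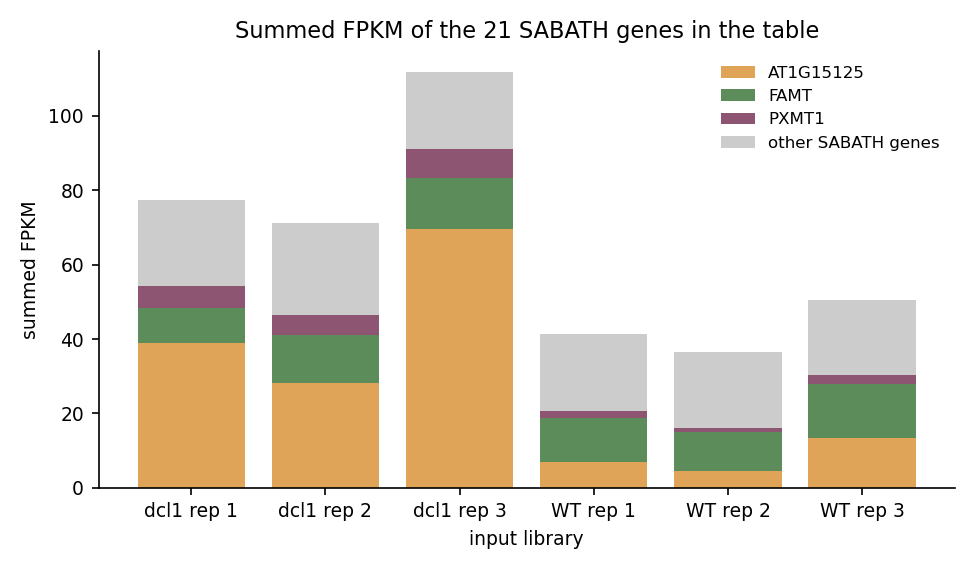
Summed FPKM of the 21 SABATH genes in the table per input library, dcl1 left and WT right, split into AT1G15125, FAMT, PXMT1 and all others. The dcl1 sums (71.1 to 112) exceed the WT sums (36.5 to 50.4), with AT1G15125 as the largest portion in every dcl1 library.

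The genes next to the members in the table did not share the change of PXMT1. Of 9 neighbours, 7 were tested, of which 1 rose and 4 fell, with log2 changes between -0.40 and 0.28. The all-gene shares were 17.8% higher and 12.8% lower. Beside the chromosome 1 cluster, CLPP3 (AT1G66670), a chloroplast Clp protease subunit, had 67.3 ± 5.20 FPKM in dcl1 and 88.9 ± 2.64 FPKM in WT (SD, n = 3 each) and fell by 0.40 (limma adjusted p = 0.0070). AR401 (AT1G66680), annotated as a methyltransferase, rose by 0.25 (adjusted p = 0.028). The AR401 call was lost after quantile normalization (0.120) and with any 1 library left out (0.0520 to 0.0887). LIG6 (AT1G66730), a DNA ligase that starts 121 bases after the MIR163 row on the same strand, had a log2 change of 0.26 and did not pass (adjusted p = 0.067). AT1G66710 was listed at 0 in every library but WT replicate 3 (0.0184 FPKM).

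Around FAMT, all 3 tested neighbours fell slightly. They were the protein kinase gene AT3G44850 (log2 -0.33, limma adjusted p = 0.030), the chlorophyll breakdown gene ACD1 (AT3G44880, -0.33, adjusted p = 0.040) and RPL9 (AT3G44890, ribosomal protein L9, -0.30, adjusted p = 0.013). Each of these calls was lost with some single library left out. With WT replicate 2 left out, the adjusted p was 0.0790 for AT3G44850, 0.105 for ACD1 and 0.0525 for RPL9. The paralog AT3G44840 was listed at 0 in every library but dcl1 replicate 1 (0.0839 FPKM). AT3G44870, the paralog next to FAMT, had no row and was not analysed here.

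**Figure D5:**
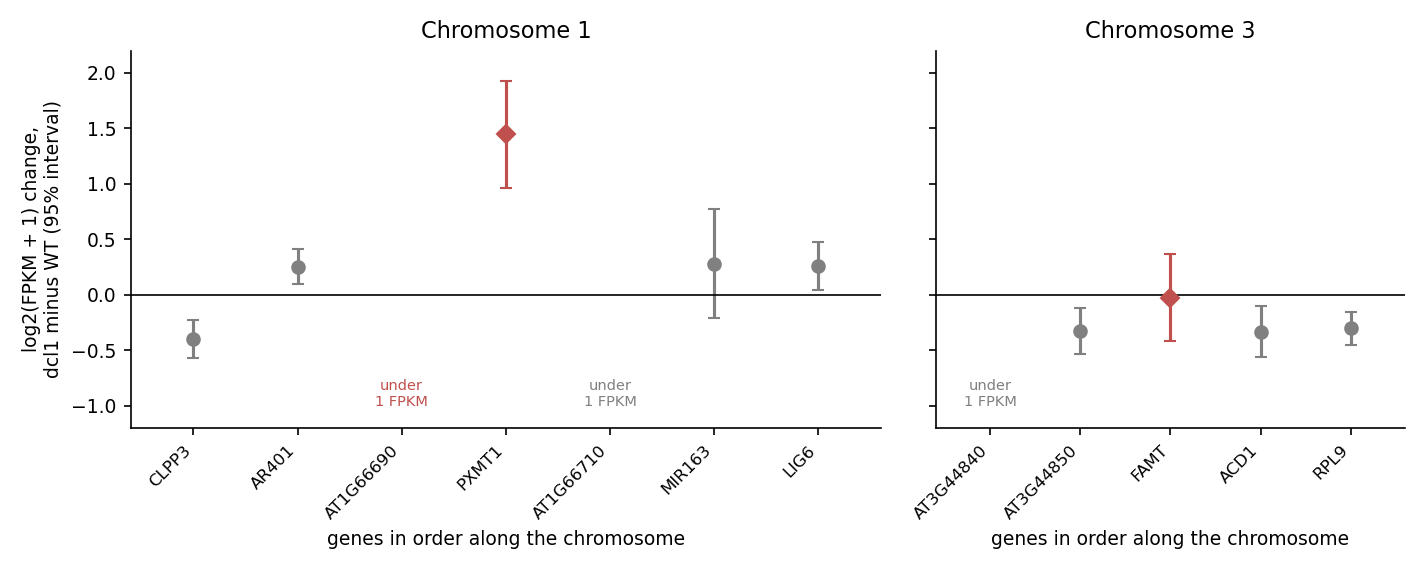
Change in log2(FPKM + 1), dcl1 minus WT, with limma 95% intervals, for the genes around the members in their order along chromosome 1 (left) and chromosome 3 (right); red marks members, and genes averaging under 1 FPKM carry no estimate. PXMT1 (1.45) stands above its neighbours, which lie between -0.40 and 0.28.

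Genes that supply the methyl donor or remove methyl esters moved both ways. Of 6 genes of the S-adenosylmethionine cycle, 2 rose and 2 fell, with a median log2 change of -0.05. Those are 33.3% each way, against 17.8% higher and 12.8% lower among all tested genes. The synthases SAM1 and SAM2 rose by 0.39 and 0.31. The synthase MAT3 (AT2G36880) fell by 0.80 (limma adjusted p = 0.0014), with 92.7 ± 11.8 FPKM in dcl1 and 161 ± 4.81 FPKM in WT (SD, n = 3 each). SAHH2 (AT3G23810), which hydrolyses the S-adenosylhomocysteine left by methyl transfer, fell by 0.72 (adjusted p = 0.014). The SAHH2 call was lost without WT replicate 2 (0.0576).

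Of 11 methyl esterases listed, enzymes that split the methyl esters of small molecules, 10 were tested, of which 1 rose (MES10) and 4 fell (MES7, MES9, MES16 and MES18), with a median log2 change of -0.20. MES18 (AT5G58310) fell by 1.68 (limma adjusted p = 2.7e-04), with 7.67 ± 1.01 FPKM in dcl1 and 26.8 ± 4.01 FPKM in WT (SD, n = 3 each). MES7 (AT2G23560) fell by 0.68 (adjusted p = 0.0044), with 1.34 ± 0.0743 FPKM in dcl1 and 2.78 ± 0.394 FPKM in WT. Where 12.8% of all tested genes fell, 40.0% of these esterases did, in a list of 10.

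Jasmonate genes were listed because FAMT carries the annotation response to jasmonic acid in the table. Of 9 listed, 8 rose and 0 fell, with a median log2 change of 1.18, where 17.8% of all tested genes rose and 12.8% fell. AOC3 (AT3G25780), an allene oxide cyclase, and JAZ1 (AT1G19180), a jasmonate repressor, rose by 3.21 and 2.76 (limma adjusted p = 5.8e-04 and 7.3e-04). These sit beside a FAMT change of -0.03 and a JMT change of -0.06 in the same libraries. PXMT1 is annotated with responses to light, salicylic acid, bacteria and fungal molecules, and with seed germination. PXMT1, FAMT and AT1G66690 share the annotations methylation and response to herbivore. Of 8 other tested genes annotated with response to herbivore, 2 rose (NSP1 and LOX2) and 0 fell. Of 30 other tested genes annotated with the same methyltransferase activity, 8 rose and 5 fell, with a median log2 change of 0.09. As shares, 25.0% of the herbivore group rose, and 26.7% of the methyltransferase group rose and 16.7% fell, beside the all-gene shares above. Both annotation groups were looked up after the members' values had been seen.

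The genes most like PXMT1 over the 6 libraries were NPC1 (AT1G07230, a phospholipase C, r = 0.999), AT3G48380 (a C78 peptidase, r = 0.998) and AT4G11320 (a papain-type protease, r = 0.998). Their log2 changes were 0.39, 0.37 and 1.26, against 1.45 for PXMT1. For NPC1 and AT3G48380 the likeness is thus one of pattern and not of size. Of all tested genes, 15.1% reached r above 0.9 with PXMT1. For FAMT the most like were DGK1 (AT5G07920, a diacylglycerol kinase, r = 0.993), ELI3-2 (AT4G37990, an elicitor-activated gene, r = 0.991) and EMB2421 (AT1G24340, r = 0.987). For FAMT the share with r above 0.9 was 0.43%. The 2 shares are not alike in kind, because r takes in the step between the genotypes. PXMT1 had such a step, and FAMT (log2 change -0.03) did not. These r are descriptions over 6 libraries, 3 of each genotype, and all genes share the genotype and total of each library.

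No peak of the authors' deposited table of 3117 differential m6A peaks overlapped FAMT, PXMT1 or AT1G66690 or was assigned to any of the 4 members. Of all tested genes, 13.9% had at least 1 such peak assigned. The same held for the 21 SABATH genes in the table and for MIR163. The nearest peak lay 4915 bases from FAMT, 18831 bases from PXMT1 and 22739 bases from AT1G66690. Among the 21 SABATH genes the shortest distance was 89 bases, from AT1G15125 to a peak that the authors' deposited table assigns to the next gene, AT1G15130. The largest p-value in that table was 0.049, so it does not say whether the members carry m6A that did not differ. Of the listed genes whose rows a peak overlapped, the authors' deposited table gave a peak in the 5′ UTR of MES7 (chr2:10030116-10030382, log2 change of dcl1 over WT 1.03, p = 4.8e-04). The authors' deposited table also gave a 3′ UTR peak for MES18 (chr5:23574991-23575257, log2 change 0.41).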

How the data were processed

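The build was TAIR10 and the tools listed were HISAT2, StringTie, HOMER, ChIPseeker, edgeR and fastp, per the submitters' processing notes, which give no role or version here. The authors deposited FPKM per gene for the 6 input libraries, a comparison table with a ratio of mean FPKM and its p-value and q-value, and a peak table with a log2 change, a p-value and a log10 FDR per m6A peak, per the file headers. How the peak log2 change was scaled is not stated.

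Genes averaging at least 1 FPKM over the 6 libraries (17925) were tested with limma 3.58.1 in R 4.3.3 on log2(FPKM + 1), with a variance trend, two-sided, adjusted by Benjamini-Hochberg over all tested genes, at an adjusted p of 0.05. The pseudocount shrinks changes of low genes. The script was checked on simulated data. The series design calls the replicates biological.

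Named were all members, MIR163, DCL1, called SABATH genes, up to 2 called genes of each other list, the 2 genes on either side of each member, and the 3 genes most like each tested member by Pearson's r. JMT, BSMT1, HYL1, HST and the genes behind small counts were named beyond that after their values were seen. The members and lists were chosen with earlier results of these data known. Names came from a RefSeq table of TAIR10.1, which matched all 69 listed genes. Alternatives changed the pseudocount, the minimum, the scaling, the replicate block or 1 library.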

Additional observations from a re-analysis of the deposited data

How the results depend on the processing

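PXMT1 rose past the threshold in every alternative that kept it (log2 change 0.76 to 1.87, limma adjusted p from 5.9e-04 to 0.014). With a minimum mean of 5 FPKM it was not tested. FAMT was not called in any alternative (-0.13 to 0.14), and neither was MIR163 (0.04 to 0.43). The difference between PXMT1 and FAMT kept its direction, from 1.33 to 1.65 with 1 library left out, 1.90 with a pseudocount of 0.1 FPKM and 0.77 with 5 FPKM. AT1G66690 differed by 0.05 on the log2(FPKM + 1) scale and by 0.34 with 0.1 FPKM, with libraries listed at 0. With 1 library left out, the count of called genes lay between 3205 and 5663, against 5480 with all. It was 3226 without WT replicate 1 and 3205 without WT replicate 2. The count of other SABATH genes called lay between 2 and 4. For AT1G15125 the change lay between 1.89 and 2.70, and for AT3G21950 between 0.42 and 0.76, both called in every alternative.

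Deviations of same-numbered replicates correlated weakly and positively (r 0.085, 0.0608 and 0.150), against -0.172 to 0.116 for differently numbered ones. Not every library correlated best with its own number, so whether the replicates are paired is unclear. With a replicate block 5138 genes were called, 3 of them other SABATH genes, PXMT1 rose by 1.45 (adjusted p = 5.9e-04), and MIR163 was not called (adjusted p = 0.0994). The block took away the calls of IAMT1 (0.0674), AR401 (0.0506) and ACD1 (0.0714). It lowered the SE of PXMT1 from 0.21 to 0.10 and of MIR163 from 0.21 to 0.11, and raised that of IAMT1 from 0.11 to 0.13. A stricter overlap rule also gave 0 peaks on members. AT1G66720 and AT3G44870 had no row, so no alternative gave a value.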
